A study of Mus musculus with 3 samples.

Results

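Quiescent microglia were examined here, meaning microglia in which no transcript of 9 activation genes had been counted. They were selected on these measured values alone. A barcode first had to carry 3000 to 9000 UMIs (unique molecular identifiers, each standing for 1 captured transcript) with at most 5% from mitochondrial genes. P2ry12 and Tmem119 together had to make up at least 0.15% of its UMIs, and fewer than 5 UMIs could come from the macrophage genes Mrc1, Pf4, Ms4a7 and F13a1. The barcodes that met these limits are called gated microglia, and the quiescent cells among them had 0 UMIs in each of Fos, Fosb, Egr1, Ccl3, Ccl4, Ifit3, Isg15, Cst7 and Ddit4. There were 2936 quiescent cells among 10502 gated microglia and 14289 barcodes in all. They numbered 801 of 2609 gated cells in Control, 1429 of 3831 in hCD33M and 706 of 4062 in hCD33m.

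The cells came from brains of 8-week-old mice, with 1 library of the 10x Chromium 3' assay per genotype. Control mice were male and labelled wild type. The hCD33M library came from males and the hCD33m library from females, and both kinds of mice carried the long (M) or the short (m) isoform of human CD33, an inhibitory sialic acid receptor of myeloid cells, as a transgene in the Rosa26 locus behind a floxed stop. Cre recombinase expressed from the Cx3cr1 locus removed the stop, so the transgenic animals carried Cre in place of a Cx3cr1 allele and the labels name no such allele in Control. The sources used here do not give how many mice were pooled per library, and the human transgenes were not among the counted genes. Mice were perfused with the transcription inhibitors actinomycin D and triptolide, the brains were kept cold with the translation inhibitor anisomycin added, and cells were sorted for CD11b, CD45 and Cx3cr1. No test between genotypes could be made from single libraries, and sex and the hCD33m genotype cannot be told apart. All intervals below are 95% intervals of counting error only.

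Microglia are the resident macrophages of the brain and, at rest, survey their surroundings with receptors such as P2ry12 and Cx3cr1 under a program maintained by the transcription factor Sall1. Fos, Fosb and Egr1 are immediate early genes, transcribed within minutes of a stimulus and also during tissue dissociation. Ccl3 and Ccl4 are inflammatory chemokines, Ifit3 and Isg15 are induced by type I interferon, Cst7 is a gene of disease-associated microglia, and Ddit4 is induced by stress and by glucocorticoids.

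The quiescent cells carried the markers of microglia. The 9 microglial markers that the rule had not used were present in every library, and their summed level was 31964 CPM (the UMIs of a gene summed over cells and scaled by the sum over all genes) in Control, 28863 in hCD33M and 30273 in hCD33m. P2ry12 and Tmem119 had been used for the choice and stood at 3303, 3567 and 3549 CPM and at 1468, 1588 and 1788 CPM in that order. Sall1 had not been used and stood at 445, 468 and 419 CPM. It stood at 30.9, 7.59 and 10.1 CPM in macrophage barcodes (23, 25 and 35 cells). These had at least 5 UMIs of the 4 macrophage genes and a P2ry12 and Tmem119 share under 0.15%. Since they were chosen to be low in microglial markers, their low Sall1 is a description and no independent reference. After thinning to 3000 UMIs, Sall1 was seen in 73.2%, 74.0% and 69.3% of quiescent cells, and in 4.35%, 4% and 2.86% of those macrophage barcodes. Before thinning the shares in quiescent cells were 88.4%, 86.5% and 83.1% at median depths of 5300, 4927 and 4665.5 UMIs, and the macrophage barcodes had median depths of 5502, 4860 and 5662. The 5 markers of border-associated macrophages outside the rule summed to 0.469, 1.12 and 0.595 CPM, with 2 or 3 of them at 0, while the 4 that the rule limited brought the sum to 6.80, 6.29 and 11.3 CPM. The 6 monocyte markers summed to 10.4 to 13.4 CPM. Markers of neutrophils, T cells and NK cells summed to 0 or 0.297 CPM. Some transcripts named for other cell types were counted at similar levels in all libraries, such as the glutamate transporter Slc1a3 at 201, 197 and 228 CPM and the immunoglobulin chain Ighm at 358, 376 and 282 CPM. Their part in any result below was not tested.

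As a check of the labels, Xist, the RNA that silences an X chromosome in females, gave 1, 0 and 7851 counts in the quiescent cells of Control, hCD33M and hCD33m. The Y-linked genes Ddx3y (261, 607 and 0 counts) and Eif2s3y (239, 478 and 0 counts) matched the labelled sexes. The quiescent cells held 4262687, 7159531 and 3363581 UMIs in all. Barcode sequences shared between libraries numbered 7 to 10 per pair, and 0 were shared between quiescent cells.

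The share of gated microglia that was quiescent differed between the libraries. Control had 30.7% (exact Clopper-Pearson interval 28.9 to 32.5), while hCD33M had 37.3% (35.8 to 38.9) and hCD33m 17.4% (16.2 to 18.6). These shares follow from the rule and are given as a description. Quiescent cells were also shallower than the other gated microglia, whose median depths were 5489.5, 5215 and 5252.5 UMIs. When every gated cell was thinned to 3000 UMIs before the 9 genes were read, the shares became 43.8%, 49.9% and 27.6%, in the same order of libraries. Among cells of 3000 to 4000 UMIs the shares were 40.6%, 45.3% and 28.8% for Control, hCD33M and hCD33m, and among cells of 8000 to 9000 UMIs they were 13.7%, 20.2% and 4.26%. The hCD33m library had the lowest share in all 6 bands of depth. The intervals of Control and hCD33M overlapped in every band except 4000 to 5000 UMIs.

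**Figure D1:**
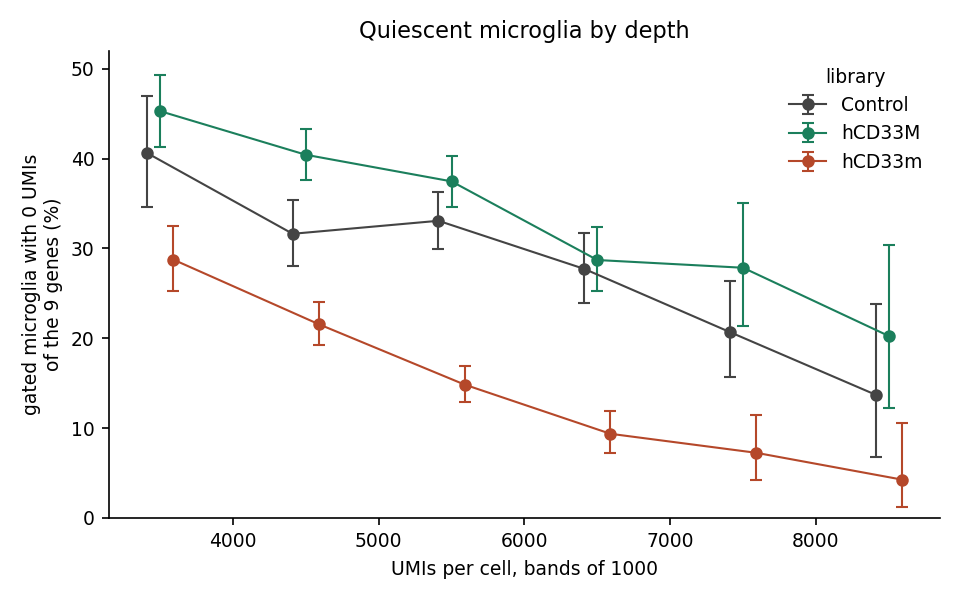
Share of gated microglia with 0 UMIs of the 9 genes (vertical axis, percent) in bands of 1000 UMIs per cell (horizontal axis) for the 3 libraries, with 95% Clopper-Pearson intervals as bars. The share was lower in the deepest than in the shallowest band of each library, with Control slightly higher at 5000 to 6000 than at 4000 to 5000 UMIs, and hCD33m lay below Control and hCD33M in every band, from 28.8% to 4.26%.

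Egr1 was the gene that most often kept a gated cell out of the quiescent group. A UMI of it was counted in 41.3%, 31.3% and 51.0% of the gated cells of Control, hCD33M and hCD33m (32.1%, 24.3% and 41.8% after thinning), and it was the only one of the 9 genes present in 367, 465 and 376 cells. The macrophage barcodes, which also transcribe early genes, had Egr1 in 26.1%, 12% and 22.9% before thinning. Fos was counted in 21.5%, 18.8% and 37.6% of gated cells (15.7%, 13.3% and 29.3% after thinning) and Fosb in 17.7%, 19.0% and 34.3%. The 3 immediate early genes alone accounted for 48.8%, 52.4% and 45.1% of the gated cells left out. Ddit4 stood out in hCD33m, where 28.6% of gated cells had a UMI of it against 4.79% in Control and 4.25% in hCD33M, and it alone kept 242, 38 and 62 cells out in that order. After thinning the Ddit4 shares were 19.2%, 2.99% and 2.66%. Of the macrophage barcodes, read without thinning, 11.4% in hCD33m, 0% in Control and 4% in hCD33M had a UMI of Ddit4. The chemokines ran the other way, with Ccl3 in 17.1% of gated cells in Control, 10.7% in hCD33M and 6.87% in hCD33m. Ifit3, Isg15 and Cst7 were each counted in 3.56% to 7.78% of gated cells.

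Many cells lay next to the limits of the rule. Exactly 1 UMI over the 9 genes was found in 526, 834 and 665 gated cells of Control, hCD33M and hCD33m. Only 13, 19 and 9 quiescent cells had a P2ry12 and Tmem119 share between 0.15% and 0.2%, and 6, 12 and 9 otherwise suitable cells fell between 0.1% and 0.15%. Macrophage genes were at 0 UMIs in 97.3%, 97.7% and 96.2% of quiescent cells. Mitochondrial shares of 4% to 5% were found in 12, 48 and 11 quiescent cells, and 9, 10 and 5 cells would have joined them at 5% to 6%. The rule was narrower than its name: the cells that also lacked Klf2, Klf4, Btg2, Dusp1, Tsc22d3, Nfkbiz, Il1b, Tnf, Ifit1, Oasl2, Lpl and Itgax numbered 93, 168 and 44, which is 11.6%, 11.8% and 6.23% of the quiescent cells.

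The most abundant transcripts of the quiescent cells were those of lysosomal and complement genes typical of microglia. Cst3, which encodes the protease inhibitor cystatin C, led with 56098, 50627 and 54455 CPM in Control, hCD33M and hCD33m. It was followed by the nuclear long RNA Malat1 (38596, 40160 and 44419 CPM) and by Tmsb4x, an actin-binding peptide gene (12405, 12835 and 12004 CPM). The complement subunit C1qa stood at 10021, 9867 and 10472 CPM. C1qb, the protease Ctsd, C1qc, Actb, the protease Ctss, Itm2b, Cx3cr1, Gm42418, the growth factor receptor Csf1r and P2ry12 were also among the 15 highest. The reads of Gm42418 overlap ribosomal RNA, so its level is uncertain.

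For most genes the variance of UMIs over the quiescent cells was close to that of counting noise. The Fano factor, the variance of a gene's UMIs over cells divided by their mean and equal to 1 for pure counting noise, was computed after thinning to 3000 UMIs. Its median over 3649 genes was 1.06, with 0.982 and 1.26 as the 5th and 95th percentiles, and 23 genes exceeded 2. A gene with few UMIs per cell stays near 1 even where its level differs between cells. The factor therefore cannot show that most genes were uniform. Gm42418 led with a median of 68.5 over the libraries, and Cst3 followed at 18.0. Apoe, the lipid transport protein gene that is high in activated microglia, had a Fano factor of 10.8 in Control and 7.89 in hCD33m at levels of 326 and 492 CPM. Malat1 reached 10.4, and Tmsb4x, mt-Co3, mt-Atp6, Ctsd, Ctss and Actb lay between 2.54 and 3.76. Jun was counted in 69.9%, 71.4% and 78.8% of the thinned quiescent cells (82.4%, 82.2% and 87.0% before thinning), with up to 13, 12 and 21 UMIs in a thinned cell, against 95.7%, 64.0% and 68.6% of the macrophage barcodes.

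To ask what else set the quiescent cells apart, their CPM was compared with that of the other gated microglia within each library. Since Jun, Btg2 and related genes are read in the same cells as the 9 genes of the rule, these ratios are a description. Of 3529 genes that reached 50 CPM in the higher class of every library, 0 were at least 1.5 times higher and 0 at least 1.5 times lower in the quiescent cells of all 3 libraries (0% and 0%). Within single libraries 0 genes were that much higher, and 5, 2 and 5 were that much lower in Control, hCD33M and hCD33m. The direction was the same in all 3 libraries for 1405 genes. Several early response genes fell under the 50 CPM minimum and were not counted here. With a minimum of 20 CPM, 6 genes were at least 1.5 times lower in all 3 libraries. They included Ier2 (log2 -1.23, -1.02 and -1.14 in Control, hCD33M and hCD33m) and Dusp1 (-1.50, -1.09 and -2.05).

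The 10 lowest genes of the quiescent cells, by the mean ratio over the libraries, held 5 early response genes outside the rule (Jun, Btg2, Junb, Zfp36 and Jund) beside Apoe, Rgs1, Ccl12, Lyz2 and Cd83. Jun, a partner of Fos in the AP-1 factor, stood at 609, 644 and 813 CPM in quiescent cells of Control, hCD33M and hCD33m and at 1128, 957 and 1385 CPM in the others, a log2 ratio of -0.89 (-0.95 to -0.83), -0.57 (-0.62 to -0.52) and -0.77 (-0.83 to -0.71). The antiproliferative gene Btg2 stood at 461, 477 and 651 CPM against 749, 663 and 1087 CPM, and the AP-1 gene Junb at 397, 404 and 414 CPM against 639, 564 and 655 CPM. For Jun, Btg2 and Junb the highest of the 3 quiescent levels lay under the lowest level of the other cells. Zfp36, a regulator of mRNA decay, Rgs1, a regulator of G protein signalling, and Jund had log2 ratios between -0.33 and -0.66. Apoe was lower by -0.39, -0.80 and -0.49, the chemokine Ccl12 by -0.31, -0.65 and -0.25, the lysozyme gene Lyz2 by -0.30, -0.48 and -0.27 and the activation antigen Cd83 by -0.41, -0.37 and -0.25. The highest 10 ratios were small. They belonged to Vps37a, Chuk, Madd, Gm42418, Smg6, Zcchc9, Snhg20, Vps50, Wdfy1 and Slc35f6, and did not exceed a log2 ratio of 0.44 in any library.

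Jun, Btg2 and Dusp1 graded with the number of UMIs of the 9 genes, whereas Apoe did not do so in every library. From 0 to at least 5 such UMIs, Jun went from 609 to 1470 CPM in Control, from 644 to 1185 CPM in hCD33M and from 813 to 1816 CPM in hCD33m. Btg2 went from 461 to 930, from 477 to 836 and from 651 to 1489 CPM. Dusp1, a phosphatase gene of the early response, went from 9.62 to 44.2, from 10.5 to 36.6 and from 18.4 to 134 CPM. Median depth also went from 5300 to 5799, from 4927 to 5595 and from 4665.5 to 5521 UMIs, and its part in the gradient was not tested. Rhob, a small GTPase gene that also belongs to the early response, was nearly level at 968 and 1007 CPM in Control, 960 and 951 CPM in hCD33M and 1250 and 1412 CPM in hCD33m. P2ry12 was slightly lower in cells with at least 5 UMIs, at 3111 against 3303, 3218 against 3567 and 3406 against 3549 CPM.

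**Figure D2:**
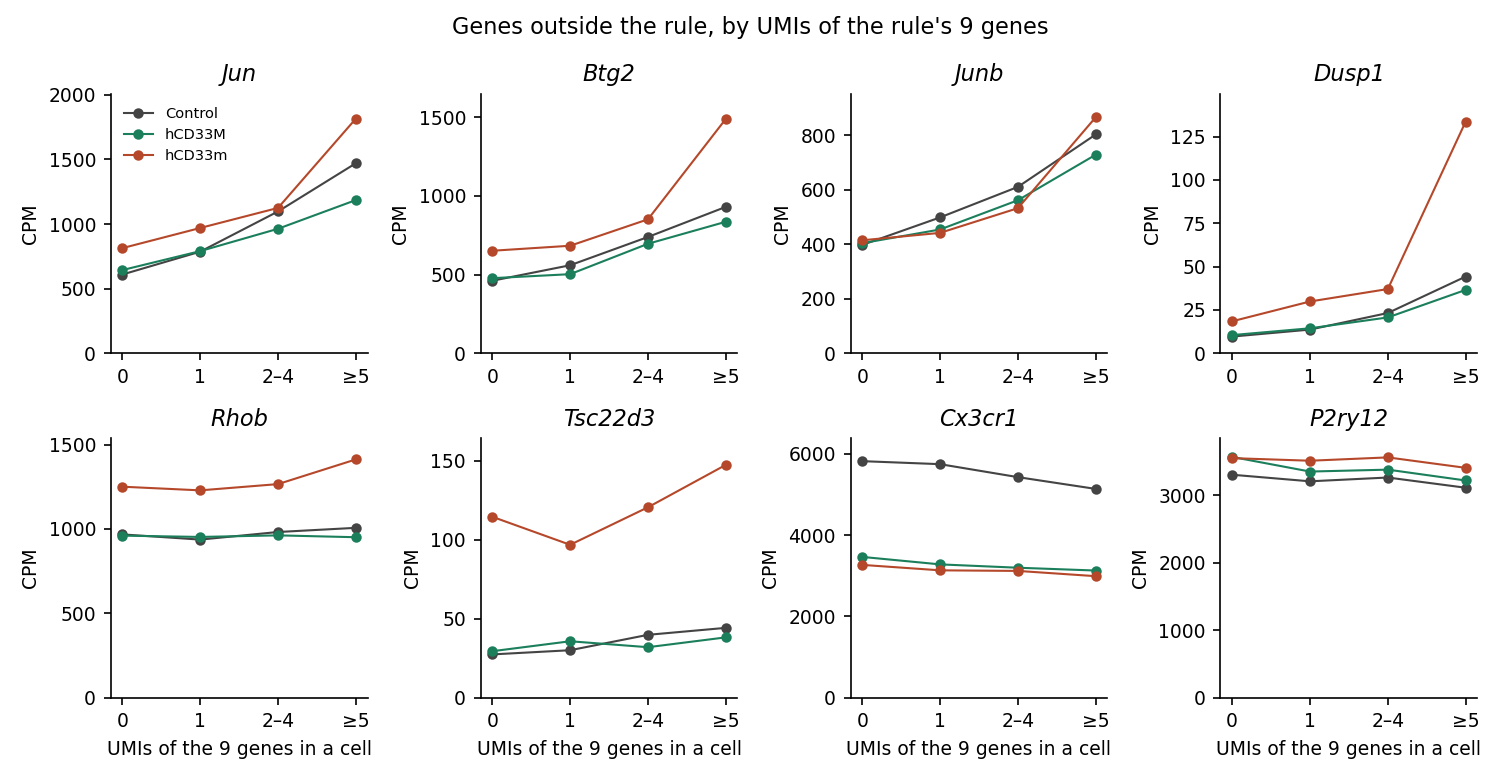
CPM of 8 genes outside the 9 (vertical axes) in gated microglia with 0, 1, 2 to 4 or at least 5 UMIs of the 9 genes (horizontal axes), with a line per library. Jun, Btg2, Junb and Dusp1 were lowest in the quiescent cells at the left, while Rhob, Cx3cr1 and P2ry12 stayed within a narrow range, and the hCD33m line for Tsc22d3 lay above the others at every point.

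Gene groups differed in direction. Over all 3529 genes, 508 were lower and 897 higher in the quiescent cells of all 3 libraries. In the list of dissociation and stress genes outside the rule, 7 of 8 measured members were lower in quiescent cells of all 3 libraries, with median log2 ratios of -0.55, -0.42 and -0.55, against 0.01, 0.02 and 0.02 over all genes. Of 12 disease-associated microglia genes, 11 were lower in all 3 libraries, with small medians of -0.09, -0.13 and -0.08. All 11 mitochondrially encoded genes were lower too, by a median of -0.04, -0.11 and -0.12. The 22 homeostatic genes centred on 0.02, 0.04 and -0.02, with 8 higher and 9 lower in all 3 libraries. Of 11 genes of Siglec and inhibitory (ITIM) signalling 5 were higher in all 3 and 0 lower, and the medians were 0.03, 0.04 and 0.02. Of 14 purinergic and chemotactic receptor genes 7 were higher in all 3 and 0 lower, and of 17 regulators of microglial identity 8 were higher and 4 lower.

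The quiescent cells of hCD33m were then set against those of Control. Of 3807 genes that reached 50 CPM in the library with the higher level, 29 were at least 1.5 times higher in hCD33m (0.762%) and 18 at least 1.5 times lower (0.473%), including 4 sex-linked genes (Xist, Tsix, Ddx3y and Eif2s3y). Among the 43 others, 42 had the same direction in the other gated microglia. The counting interval excluded equality for all 43. At these UMI totals that follows from the limits of level and size by which they were picked, so it adds no support. The 47 genes and the 41 past the same limit in the other gated microglia had 27 in common, which is 57.4% of the first list and 65.9% of the second. Of the 41, 5 were genes of the rule, which could not be on the list of the quiescent cells. Across 3657 genes the log2 ratios in the 2 classes had a Pearson correlation of 0.74. This is a description, since both classes came from the same libraries.

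With a list of 10 sex-linked genes left out, the highest ratios in hCD33m belonged to Tsc22d3 and a long RNA gene beside Fkbp5. The list held Xist, Tsix, Ddx3y, Eif2s3y, Kdm5d, Uty, Kdm6a, Eif2s3x, Ddx3x and Kdm5c. Other genes of the X and Y chromosomes stayed in, here and below. Tsc22d3 (chrX:140539528-140600659, GRCm38), a glucocorticoid-induced leucine zipper gene, stood at 27.4 CPM in Control, 29.5 in hCD33M and 114 in hCD33m, and the hCD33m level lay far above the others. The ratio to Control was 4.17-fold (log2 2.06, 1.76 to 2.37), and in the other gated microglia it was 1.73 on the log2 scale (1.57 to 1.88). Thinned to 3000 UMIs, 7.62%, 7.70% and 26.8% of quiescent cells had a UMI of Tsc22d3 (12.5%, 12.8% and 35.1% before thinning), against 21.7%, 16.0% and 57.1% of the macrophage barcodes. Macrophages transcribe Tsc22d3 too, so these barcodes give no background level for it. E230001N04Rik, a long noncoding RNA gene (chr17:28522720-28525398), stood at 12.4, 8.52 and 56.8 CPM, a log2 ratio of 2.19 (1.75 to 2.66). It lies just upstream of Fkbp5 (chr17:28399094-28517527) on the opposite strand. Fkbp5, which encodes a cochaperone of the glucocorticoid receptor, stood at 37.1, 43.9 and 57.7 CPM.

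Next among the 10 highest were 8 genes of mixed kinds. The interleukin 7 receptor gene Il7r stood at 53.0 CPM in Control, 87.7 in hCD33M and 112 in hCD33m (log2 1.08, 0.84 to 1.32). Rgs1 stood at 68.3, 64.5 and 139 CPM (log2 1.02, 0.81 to 1.24), and the other gated microglia had a log2 ratio of 0.91. In the 93 Control and 44 hCD33m cells that also lacked the wider set of genes, the ratio of Rgs1 was 0.47. The histone gene Hist1h2ac had 32.8, 28.2 and 74.0 CPM in quiescent cells (log2 1.17, 0.87 to 1.48) but 56.8, 35.2 and 65.5 CPM in the others, where the log2 ratio was 0.20 (0.06 to 0.35). Slfn2, a Schlafen family gene, reached 0.84, and Hist3h2a, Adap2os, Gm26740 and AC160336.1 lay at 0.77 or 0.78. Adap2os and Gm26740 are annotated as antisense transcripts and are uncertain, since the sources used here do not state how the counting treated strand.

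With sex-linked genes left out, the lowest ratio belonged to Erh, a small conserved nuclear protein gene (chr12:80634022-80644341), with 83.8 CPM in Control, 49.9 in hCD33M and 36.3 in hCD33m (log2 -1.21, -1.52 to -0.91). S1pr1, a sphingosine 1-phosphate receptor gene, stood at 65.9, 49.9 and 36.0 CPM (log2 -0.87, -1.19 to -0.56), and in the other gated microglia the ratio was -0.46 (-0.61 to -0.31). Cx3cr1, the locus that carried Cre in the transgenic mice and a marker of the sort, stood at 5820, 3465 and 3269 CPM, lower in both transgenic libraries. Also among the lowest were Gm40841, Nubp1, Prkca, Hmgn2, Cirbp and Gm6277, at log2 ratios of -0.63 to -0.81. In the cells that also lacked the wider set, Erh was at -0.51, within 1.5-fold, Nubp1 at -0.02 and Cirbp at -0.29. The cold-inducible RNA-binding protein gene Cirbp stood at 220, 218 and 141 CPM. Gm6277 is annotated as antisense, so its counts are uncertain.

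**Figure D3:**
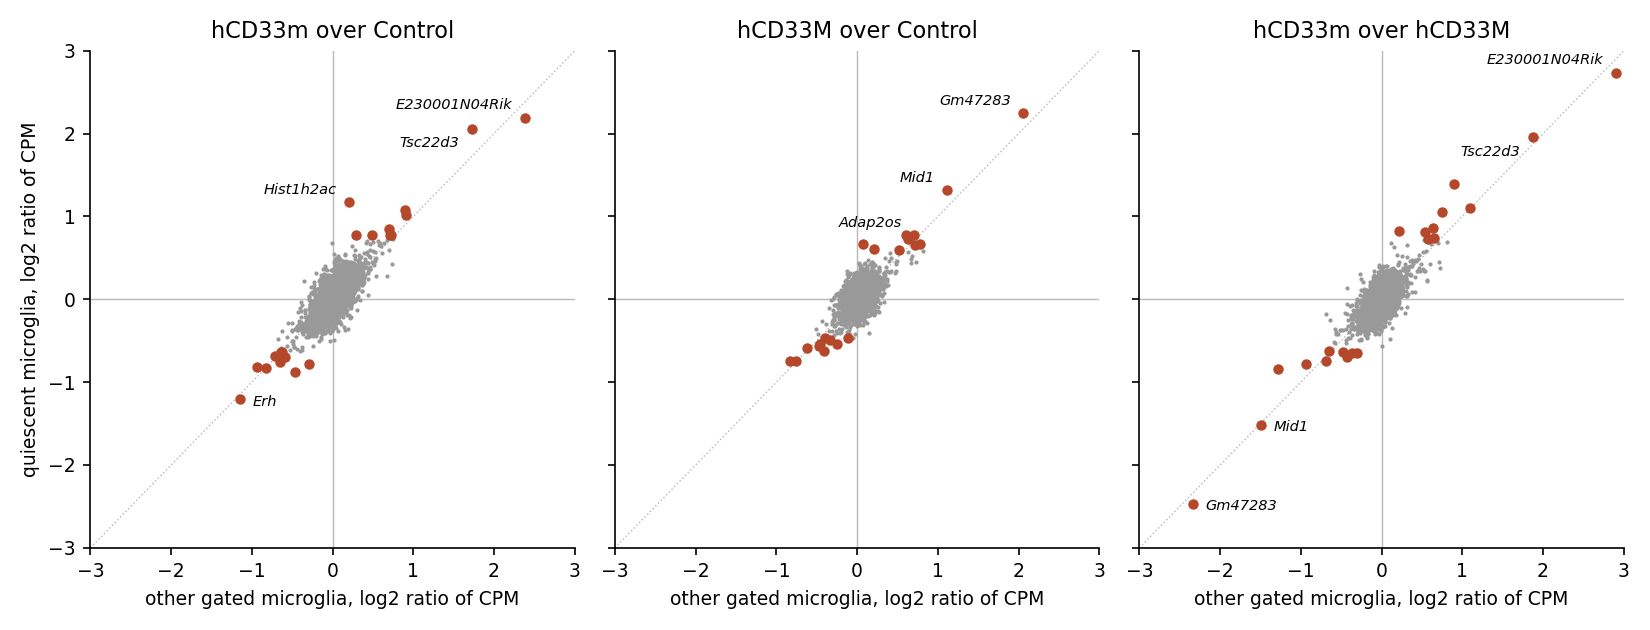
Log2 ratios of CPM between libraries in quiescent microglia (vertical axes) and in the other gated microglia (horizontal axes), with a panel per pair of libraries and a point per gene that reached 50 CPM in both classes. Red points are the genes with the 10 highest and 10 lowest ratios in quiescent cells, with the listed sex-linked genes left out. Most lie near the dotted line of equal ratios, and Hist1h2ac lies away from it at 1.17 against 0.20.

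**Figure D4:**
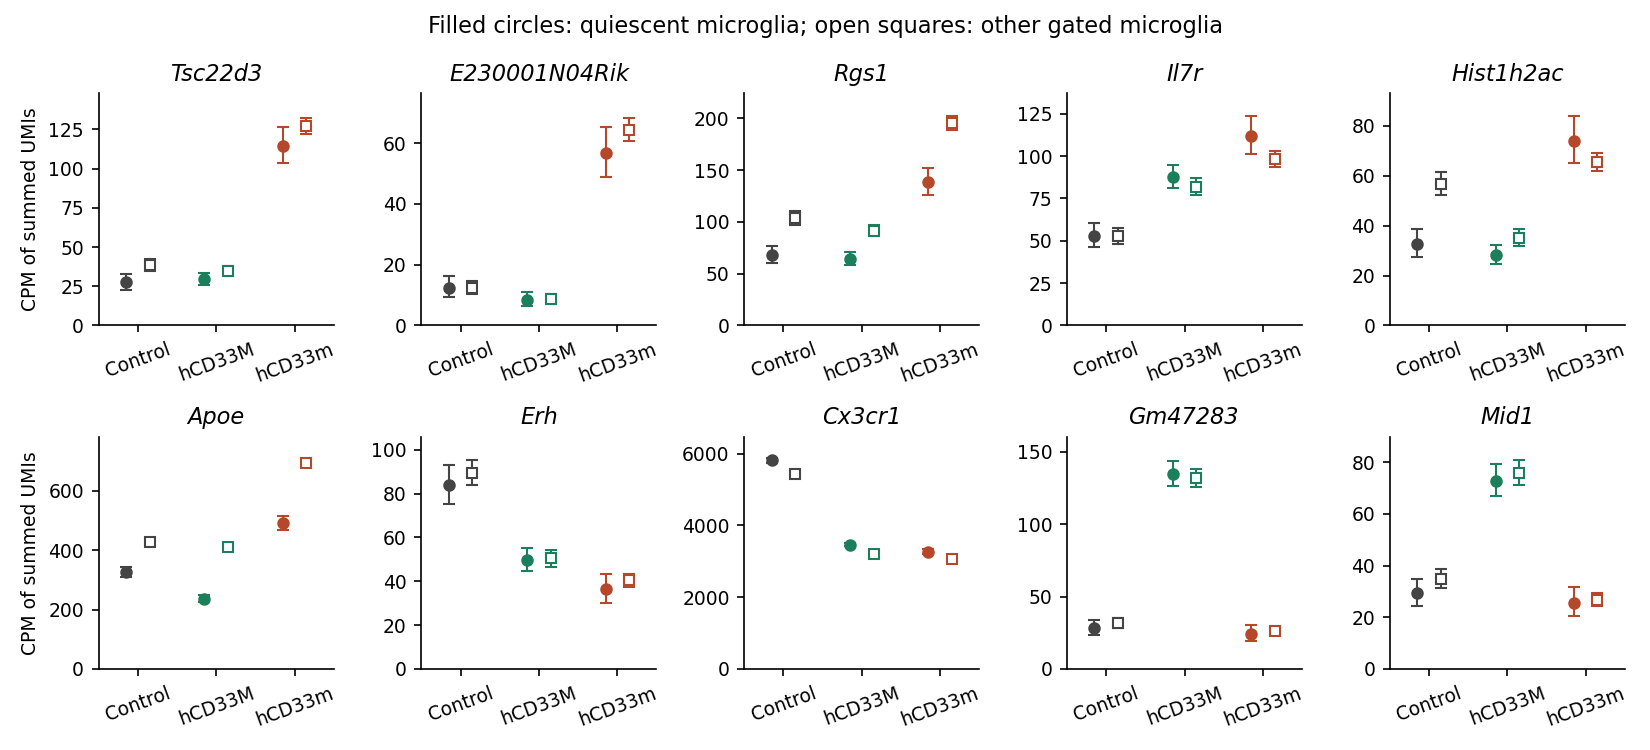
CPM of 10 genes (vertical axes, from 0) in quiescent microglia (filled circles) and in the other gated microglia (open squares) of each library, with exact 95% Poisson intervals as bars. The hCD33m levels of Tsc22d3 and E230001N04Rik lie above both other libraries in either class of cells, and Gm47283 and Mid1 are high in hCD33M alone.

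Early response genes that the rule had not used kept a difference in the quiescent cells. The study's own early response list has 6 genes outside the rule, so it is not independent of this study, and 5 of them reached 50 CPM. All 5 lay above 0 in hCD33m over Control, with a median log2 ratio of 0.43 against 0.01 over all genes, and the median in the other gated microglia was also 0.43. Jun stood at 0.42 (0.34 to 0.50) above Control, the antiproliferative gene Btg1 at 0.43 (0.33 to 0.53), Btg2 at 0.50 (0.41 to 0.58) and Rhob at 0.37 (0.31 to 0.43). Zfp36l1, an mRNA decay factor gene (chr12:80107754-80113013), was the only one of the 5 at least 1.5 times higher, against 0.762% of all measured genes. It had 386, 400 and 640 CPM in Control, hCD33M and hCD33m (log2 0.73). It overlaps the long RNA gene Gm26669 (chr12:80108034-80113000), whose 46.4, 39.1 and 65.1 CPM are uncertain for that reason. Klf2, the sixth gene, a transcription factor, was below the minimum with 18.3, 18.9 and 41.9 CPM.

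Of 18 other early response genes 5 were measured. Junb stood at 0.06, Klf6 at 0.03, Ier5 at 0.00 and Jund at -0.03 in hCD33m over Control, and Zfp36 at 0.33, with a median of 0.02. Members under the minimum went both ways: Klf4 stood at 4.22, 6.01 and 14.3 CPM and Dusp1 at 9.62, 10.5 and 18.4 CPM in Control, hCD33M and hCD33m, while Atf3 stood at 29.1, 22.6 and 13.4 CPM and Ier3 at 28.2, 21.4 and 11.9 CPM. The difference between this list and the study's list was not tested. In hCD33M over Control the 5 genes outside the rule had a median of 0.05 against 0.02 over all genes. Jun was 0.08 above Control in quiescent cells (0.01 to 0.15) but -0.24 in the other gated microglia, and Btg2 was 0.05 and -0.18.

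**Figure D5:**
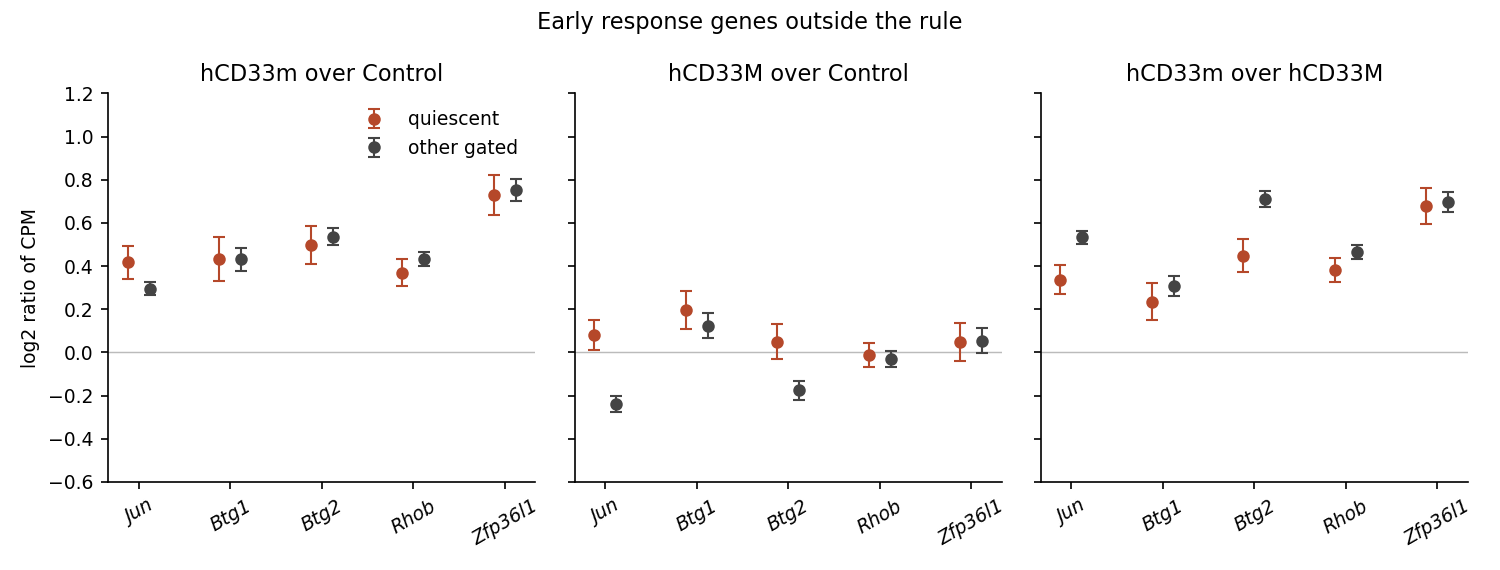
Log2 ratio of CPM (vertical axes) of the 5 early response genes outside the rule that reached 50 CPM, in quiescent (red) and other gated microglia (grey), with exact 95% counting intervals as bars and a panel per pair of libraries. All 5 lie above 0 in both panels with hCD33m, and in hCD33M over Control the ratios of Jun and Btg2 differ in sign between the classes.

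Glucocorticoid response genes were among the groups that lay to one side. Over Control, all 5 measured of 11 were above 0 in hCD33m, with a median of 0.30 in quiescent cells and 0.41 in the others. Tsc22d3 and Fkbp5 (log2 0.64) were at least 1.5 times higher, as were 0.762% of all measured genes. Cebpd and the kinase gene Sgk1 both stood at 0.30 and the metabolic regulator Txnip at 0.23. In hCD33M over Control, 3 were measured and their median was -0.02. This list was drawn up after such genes had been noticed in these libraries, so its direction is not independent evidence.

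Homeostatic genes were close to equal. Of 24 measured, Cx3cr1 alone was past 1.5-fold in hCD33m over Control, and the list medians were 0.01 in hCD33m and -0.02 in hCD33M. Crybb1 stood at -0.38, the fructose transporter gene Slc2a5 at -0.25 and Tmem119 at 0.28 in hCD33m over Control. Regulators of microglial identity, 19 in number, had 0 past 1.5-fold in any pair, near the share over all genes (in hCD33m over Control 0.762% higher and 0.473% lower), with Smad3 at -0.36, the TGF-beta activation gene Nrros at -0.32 and Spi1 at -0.16. Mouse Cd33 stood at 483, 503 and 483 CPM, and of 11 measured genes of Siglec and ITIM signalling 0 were past 1.5-fold, also near that share. The phosphatase gene Ptpn6, recruited by ITIM receptors, was at -0.16 and the lipid phosphatase gene Inpp5d at 0.22 in hCD33m over Control.

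Inflammatory and disease-associated genes were mixed. Of 8 inflammatory genes measured, the NF-kB inhibitor gene Nfkbia was past 1.5-fold in hCD33m over Control (log2 0.59). The cytokine gene Il1a stood at -0.50 and Bcl2a1b at -0.34. In this pair 0.762% of all measured genes were at least 1.5 times higher and 0.473% at least 1.5 times lower. Apoe was the only one of 12 disease-associated genes past 1.5-fold, with 326 CPM in Control, 237 in hCD33M and 492 in hCD33m (log2 0.59 in hCD33m and -0.46 in hCD33M over Control). All 12 lay below 0 in hCD33M over Control, with a median of -0.10 against 0.02 over all genes. For hCD33m the number below 0 was 9 of 12, including the chemokine gene Ccl6 at -0.35 and the tetraspanin gene Cd9 at -0.30. Of 20 interferon genes, 3 were measured, and Trim30a stood highest at 0.51. The MHC class I genes H2-K1 and H2-D1 stood at 0.39 and 0.30 in hCD33m and at 0.21 and 0.20 in hCD33M over Control, with 0 of 8 antigen presentation genes past 1.5-fold, near the share over all genes.

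Ribosomal protein genes differed by small amounts that shared a direction. Of 76 measured, 71 lay below 0 in hCD33m over Control, with a median of -0.25, and 1 (Rpl35) was past 1.5-fold. For hCD33M over Control 63 of 76 lay below 0, with a median of -0.09. Their share of the UMIs of quiescent cells was 7.03%, 6.63% and 5.99% in Control, hCD33M and hCD33m, and the other gated microglia gave 7.11%, 6.89% and 6.15%. Of 10 glycolytic genes, the hexokinase gene Hk2 was past 1.5-fold in hCD33m over Control (log2 0.59) and the enolase gene Eno1 stood at -0.50. Among all measured genes of this pair, 0.762% were at least 1.5 times higher and 0.473% at least 1.5 times lower. In the lists of lysosomal (19 measured), phagocytosis receptor (14), cytoskeletal (16), heat shock (7) and iron storage (6) genes, 0 were past 1.5-fold in any pair, near the share over all genes, and their medians in hCD33m over Control ran from -0.10 to 0.12. Of 16 cell cycle genes 1 was measured.

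The quiescent cells of hCD33M and Control were both from males. Of 3785 genes, 11 were at least 1.5 times higher in hCD33M (0.291%) and 3 at least 1.5 times lower (0.0793%), and all 14 had the same direction in the other gated microglia. Of the 22 genes past that limit in the other gated microglia, 10 were shared. This is 71.4% of the list of quiescent cells and 45.5% of the other. Of the 22, 2 were genes of the rule, which could not be on the list of the quiescent cells. Gm47283 stood at 28.4, 135 and 24.4 CPM in Control, hCD33M and hCD33m (log2 2.25 in hCD33M over Control, 1.97 to 2.53). Mid1, a ubiquitin ligase gene, stood at 29.3, 72.9 and 25.6 CPM (log2 1.31, 1.03 to 1.61). Gm47283 (chrY:90784738-90816464) and Mid1 (chrX:169685199-170005736) lie at the ends of the sex chromosomes, near the region the X and Y share. Gm47283 was counted in the female hCD33m library although Ddx3y and Eif2s3y were at 0 there, so its counts are uncertain.

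Other high ratios of hCD33M over Control were those of Adap2os (log2 0.78), Il7r (0.73), Gm26740 (0.65), the ribosomal protein copy Rps27rt (0.67) and the myristoyltransferase gene Nmt1 (0.59). In the order Control, hCD33M, hCD33m, Adap2os stood at 145, 248 and 249 CPM. Nmt1 stood at 210, 316 and 335 CPM. Both ratios share the Control library. Rps27rt (114, 182 and 183 CPM) is a retrogene of Rps27, so its reads are uncertain. The sulfotransferase gene Chst1 (0.78), the ephrin gene Efnb1 (0.67) and Lpp (0.61) were past 1.5-fold in hCD33M over Control. Chst1 stood at 41.1, 70.3 and 49.9 CPM, Efnb1 at 32.1, 51.0 and 47.6 CPM and Lpp at 36.6, 55.9 and 52.6 CPM in Control, hCD33M and hCD33m. In the other gated microglia Efnb1 gave 0.07 (-0.13 to 0.27) and Lpp 0.21 (0.04 to 0.39). On the low side were Erh and Cx3cr1, each at -0.75, and Arhgap45 at -0.63, with 430, 278 and 287 CPM. The next lowest ratios, within 1.5-fold, belonged to 0610010K14Rik, Dpm1, Nupr1, Hmgn2, Snrnp40, Rpl35 and Tbpl1, at -0.46 to -0.58.

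Between the transgenic libraries, both of which carried Cre, 19 of 3818 genes were at least 1.5 times higher in hCD33m (0.498%) and 14 at least 1.5 times lower (0.367%), again with 4 sex-linked genes among them. All 29 others had the same direction in the other gated microglia. The 33 genes shared 20 with the 37 of the other gated microglia, which is 60.6% of the first list and 54.1% of the second. Genes of the rule, which could not be on the first list, made up 5 of the 37. E230001N04Rik (log2 2.74, 2.31 to 3.18) and Tsc22d3 (1.96, 1.71 to 2.21) were again highest with sex-linked genes left out, followed by Hist1h2ac (1.39), Rgs1 (1.10) and Apoe (1.05, 0.96 to 1.15). Apoe gave 0.75 (0.71 to 0.80) in the other gated microglia. In the cells that also lacked the wider set, Rgs1 gave 0.04. Hist3h2a, the stress gene Nupr1, the receptor accessory gene Ramp1, Gm26669 and Fam46a, a poly(A) polymerase gene, lay between 0.73 and 0.87. Nupr1 had 72.5 CPM in Control and 88.3 CPM in hCD33m, and its ratio of hCD33m over hCD33M was 0.82 in quiescent cells and 0.22 in the other gated microglia.

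On the low side, the listed sex-linked genes again left out, were Gm47283 (-2.47), annotated on the Y chromosome, and Mid1 (-1.51) on the X chromosome. The B cell survival factor gene Tnfsf13b came next, with 45.3, 63.6 and 35.4 CPM in Control, hCD33M and hCD33m (log2 -0.85 over hCD33M, -1.15 to -0.55). The leukocyte actin-binding gene Lsp1 stood at 73.2, 85.3 and 49.6 CPM (-0.78), and Upk1b, Irf2bpl, the antisense transcripts Gm26782 and Gm6277, and Cirbp lay at -0.63 to -0.69. The early response genes outside the rule had a median of 0.38 in quiescent cells and 0.53 in the others. Mitochondrially encoded genes were below 0 for 11 of 11, with a median of -0.22, while their median was 0.11 in hCD33M over Control. The median mitochondrial share per quiescent cell was 1.75%, 2.00% and 1.67% in the order Control, hCD33M, hCD33m.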

How the data were processed

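Microglia of 3 genotypes were measured with 1 library each. The authors aligned reads to mm10 with Cell Ranger, and the submitters' processing notes name Seurat. The deposited values are raw UMI counts per gene and barcode, in files that hold no comparison columns. Their annotation release was not given in the sources used here. Quiescent cells were chosen by the rule stated above on the counts as deposited. The members and lists were chosen with earlier results of these data known. UMIs were summed over quiescent cells and over the other gated microglia of each library and scaled to CPM. A gene was measured at 50 CPM or more in the higher library, and at least 1.5-fold was used as a limit of size, not as a test. Ratios carry exact conditional binomial intervals, levels exact Poisson intervals and shares Clopper-Pearson intervals. All cover counting error at 95% only, since UMIs of a cell are not independent samples of a genotype. No doublet caller was run, and barcodes above 9000 UMIs were left out.

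Named genes were the rule's genes and markers, the 10 highest and 10 lowest ratios of each pair and of quiescent over other cells with the same sign in all 3 libraries, the 15 most abundant, the 10 most variable, the early response genes and up to 3 extremes of each list. A few named by it are left out of the text. Genes named from outside this rule (Dusp1, Cd33, Zcchc17 and single members of lists) were chosen after their values were seen. Coordinates came from GENCODE vM21 (GRCm38, the assembly of mm10) by symbol. The alternatives were thinning to 3000 UMIs, windows, limits and gene sets of the rule, TMM factors (edgeR 4.0.16), DESeq2 1.42.0 size factors (R 4.3.3), a reduced total, cells matched on depth and minimums of 20 and 100 CPM. The ratio code was tested on simulated data. Computation used scipy 1.17.1, pandas 2.3.3 and numpy 2.4.6 in Python 3.11.15, and plots used matplotlib 3.10.9.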

Additional observations from a re-analysis of the deposited data

Results flagged for a closer look

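Zcchc17, a zinc finger protein gene, was higher in quiescent cells of hCD33m but near equality in the other gated microglia. In hCD33m over Control its log2 ratio was 0.68 in quiescent microglia, with 54.7 CPM against 34.3 CPM, and -0.01 in the other gated microglia. It was the only gene past 1.5-fold in quiescent cells, listed sex-linked genes left out, whose sign differed between the classes in any pair. The difference between the classes was not tested.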

How the results depend on the processing

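No paired analysis was possible because each genotype had 1 library, and for the same reason no replicate could be left out. Among 14 summary results, 113 of 158 alternative values stayed within the spread or within 1.5 times. The quiescent share in Control, hCD33M and hCD33m was 43.8%, 49.9% and 27.6% after thinning, 50.9%, 59.1% and 33.8% with at most 1 UMI of the 9 genes and 3.56%, 4.39% and 1.08% with the wider set of genes at 0, always lowest in hCD33m. Genes lower in quiescent than in other gated microglia of all 3 libraries went from 0 to 1 (TMM, DESeq2, the reduced total, 4000 to 7000 UMIs, 3% mitochondrial, 0.3% of P2ry12 and Tmem119), 2 (at most 1 UMI, wider set) or 6 (20 CPM). Genes higher and lower in hCD33m over Control numbered 77 and 76 at 20 CPM, 16 and 7 at 100 CPM and 479 and 458 with the wider set. For hCD33M over Control they were 32 and 20 at 20 CPM, 201 and 138 with the wider set and 17 and 8 with cells matched on depth, and 5 were higher at 100 CPM. The 3 lower genes became 5 with TMM or DESeq2, 7 with the reduced total or 3% mitochondrial and 8 with 4000 to 7000 UMIs or 0.3%. For hCD33m over hCD33M they were 53 and 62 at 20 CPM, 9 and 7 at 100 CPM and 366 and 445 with the wider set, and 9 were lower with at most 1 UMI. The wider set left 93, 168 and 44 cells, so each level rested on far fewer UMIs, and it put the early response median of hCD33m over hCD33M at 0.47. It also turned Hist3h2a (-0.27) and AC160336.1 (-0.21) in hCD33m over Control and Lsp1 (0.085) in hCD33m over hCD33M. Rgs1 went to 0.47 over Control and 0.04 over hCD33M there. Ratios of hCD33m over Control went to -0.51 for Erh, -0.02 for Nubp1 and -0.29 for Cirbp in that set. Those over hCD33M went to -0.15 for Cirbp and -0.03 for Gm6277. The cause of the other shifts was not tested. For the named ratios past 1.5-fold, 565 of 613 alternative values were past it too.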
